A study of Homo sapiens with 24 samples.

Results

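The genes described here belong to the machinery that fuses vesicles with target membranes: the SNARE proteins of the syntaxin, VAMP and SNAP-25 families, the syntaxin-binding proteins, the synaptotagmins, the synaptotagmin-like proteins and the synapsins. They were chosen by name, as all probes other than controls whose gene name starts with SYT, SYTL, STX, STXBP, VAMP or SNAP followed by a digit, or is SYN1, SYN2 or SYN3. The rule found 60 genes measured by 96 probes, of 36337 gene names and 50599 probes on the array. A probe was kept if, in 1 group or more, the scanner software marked its signal on each of the 4 arrays as well above background, which left 46 of the 60 genes with 67 probes, and 20700 genes with 27953 probes over the whole array. SNAP91, a clathrin adaptor of endocytosis that is not a SNARE but fits the name rule, was among the 14 genes that did not pass.

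RNA was measured on 24 one-colour Agilent arrays in HT29, a human colon adenocarcinoma cell line, in 6 groups of 4 arrays. Cells were left untreated (NT) or were exposed for 6 h to C3/C2, which is 30 mM propionate with 15 mM acetate, to SN, which is diluted culture supernatant of the dairy bacterium Propionibacterium freudenreichii, to TRAIL, a ligand of death receptors at 100 ng/ml together with anti-Flag antibody (2 µg/ml), or to TRAIL+C3/C2 or TRAIL+SN. C3/C2 holds the main acids of SN at about the amounts in the diluted supernatant, so the comparison of SN with C3/C2 asks what the supernatant adds to these acids. All groups share 1 cell line, and no normal colon cells are part of the comparison. Replicates come from 2 independent experiments run in duplicate, so the 4 arrays of a group are not 4 independent experiments. The labels do not say which arrays belong to which experiment. The p-values therefore measure the spread between these arrays, part of which may be technical.

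The arrays lay on 4 slides. Slide 1 held C3/C2 replicate 1 with NT replicate 1, slide 2 the remaining arrays of these groups, slide 3 all SN and TRAIL arrays and slide 4 both co-treatments. Only C3/C2 against NT, SN against TRAIL, and TRAIL+SN against TRAIL+C3/C2 compare arrays of the same slides, and in every other comparison slide and treatment cannot be told apart. The median 75th percentile of the processed intensity was 883 in NT, 820 in C3/C2, 759 in SN, 663 in TRAIL, 503 in TRAIL+C3/C2 and 520 in TRAIL+SN. Levels are given below as log2 of the processed intensity minus the 75th percentile of the array, so 0 is the 75th percentile and each step of 1 is a 2-fold step. As levels of different probes also depend on the probe, they were compared between groups and not between genes. All 9 epithelial markers checked, among them EPCAM, KRT8 and KRT18, were well above background on all 24 arrays. Of 10 enteroendocrine markers, CHGA, CHGB, NEUROD1, PCSK1 and TAC1 were well above background on none, and GCG was so on all 12 arrays of NT, C3/C2 and SN. Out of 4 arrays each of NT, C3/C2 and SN, INSM1 was well above background on 4, 0 and 0, SCG2 on 1, 4 and 2, SYP on 2, 4 and 4 and SCG3 on 3, 4 and 2. The summed level of the 10 lay between -2.40 and -1.92 (log2) in NT, -2.49 and -2.25 in C3/C2 and -2.49 and -2.19 in SN.

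Fusion of a vesicle takes a SNARE protein on the vesicle, usually a VAMP, and a syntaxin with a SNAP-25 family member on the target membrane, whose helices wind into 1 bundle and pull the membranes together. Syntaxin-binding proteins chaperone or hold back the syntaxin, synaptotagmins couple fusion to calcium or, in members that do not bind it, to other steps of vesicle traffic, and synaptotagmin-like proteins tie vesicles to Rab27. In the intestinal epithelium these proteins serve mucus and peptide secretion and the delivery of proteins to the apical and basolateral membranes, and some members are best known from neurons and endocrine cells.

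Most of the change in these genes came with C3/C2 and SN, and no gene was called with TRAIL alone. A gene is called below if its fold change was 2 or more and its adjusted p under 0.05 (limma, Benjamini-Hochberg over all 20700 genes). Log2 differences are given ± their standard error from 4 arrays a group. With C3/C2, 11 of the 46 genes tested were called higher and 3 lower, where 19.6% of all genes were called, 13.4% higher and 6.17% lower. In TRAIL+C3/C2 cells 12 were higher and 3 lower, where 24.2% of all genes were called (16.3% higher and 7.93% lower). With SN, 12 were higher and 3 lower, beside 24% of all genes (14.2% higher and 9.74% lower). In TRAIL+SN cells 11 were higher and 3 lower, beside 26.2% of all genes (16.1% higher and 10.1% lower). Of the 44 genes that were well above background on all 4 NT arrays, 9 were called higher and 3 lower with C3/C2, 11 and 3 with SN, 11 and 3 in TRAIL+C3/C2 cells and 10 and 3 in TRAIL+SN cells. The 2 others, SYT11 and STX11, passed the filter only through groups in which they were high. At any fold, 35 genes had an adjusted p under 0.05 with C3/C2, 34 in TRAIL+C3/C2, 32 with SN and 31 in TRAIL+SN cells, beside 63%, 69.4%, 69.3% and 70.1% of all genes. With TRAIL none of the 46 was called at this rule by limma, where 2.93% of all genes were called, and 13 had an adjusted p under 0.05 at a smaller fold, beside 33.5% of all genes. None was called either with the unadjusted p in place of the adjusted one. The 4 treatments with C3/C2 or SN share their NT arrays, so their counts are not separate evidence. In bulk RNA of this kind fewer cells of a type and less RNA per cell cannot be told apart.

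The median log2 difference from NT over the 43 genes that were well above background on all 24 arrays was 0.43 for C3/C2, 0.44 for TRAIL+C3/C2, 0.37 for SN, 0.30 for TRAIL+SN and 0.04 for TRAIL. Over all 46 genes, kept by the same filter as all genes tested, it was 0.49, 0.44, 0.38, 0.30 and 0.06 in the same order. Over all genes tested it was 0.08, 0.10, -0.02, 0.04 and 0.03 in the same order. Scaling arrays to their median in place of the 75th percentile gave 8 genes higher and 4 lower for C3/C2, beside 21.0% of all genes, and 7 against 4 for its co-treatment, beside 26.2%. Scaling to spike-in probes gave 8 higher and 5 lower for TRAIL+SN, beside 32.9% of all genes, and 6 against 5 for TRAIL+C3/C2, beside 36.1%. In all, 20 of the 46 genes were called against NT in at least 1 treatment, 16 of them higher and 4 lower. Of these, 11 were called in all 4 treatments that held C3/C2 or SN: SYT7, SYT11, SYT12, SYT15, SYTL2, SYTL3, STX1A, STXBP4 and VAMP1 were higher, and STX19 and STXBP3 were lower. In none of the comparisons with NT in which a gene was called did its treated arrays overlap with the NT arrays. The remaining 26 genes kept log2 differences between -0.68 and 0.97 with C3/C2, between -0.75 and 0.95 with SN and between -0.32 and 0.38 with TRAIL.

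**Figure D1:**
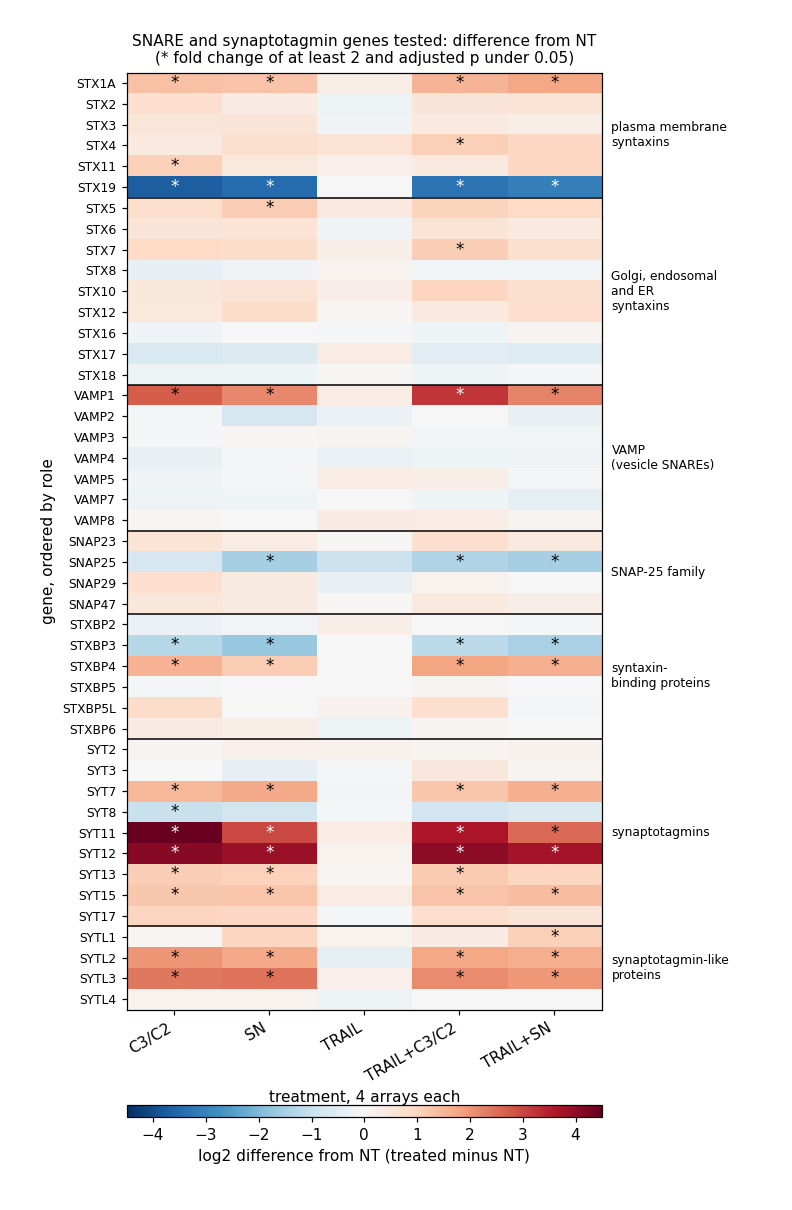
SNARE and synaptotagmin genes tested, 45 of the 46, in rows by role, against the 5 treatments in columns. Colour gives the log2 difference from NT over 4 arrays a group, red for higher and blue for lower, and a star marks a fold change of at least 2 with adjusted p under 0.05. With C3/C2, stars mark 6 of 9 synaptotagmins, 2 of 4 synaptotagmin-like proteins, 3 of 6 plasma membrane syntaxins, 1 of 7 VAMP genes and 0 of 9 internal syntaxins. Over all genes 19.6% were called with C3/C2. The TRAIL column has no star.

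Of 17 synaptotagmin genes on the array 9 were tested, and 5 of them rose with C3/C2 and with SN while 1 fell with C3/C2. Over all genes 13.4% were called higher with C3/C2 and 14.2% with SN. The 5 include SYT11, which passed the filter only through groups in which it was high. SYT1, SYT4, SYT5, SYT6, SYT9, SYT10, SYT14 and SYT16 did not pass, and SYT1, the fast calcium sensor of synapses, is among them. SYT12, a synaptotagmin that does not bind calcium, had levels of -4.76, -4.44, -5.20 and -5.46 on the NT arrays and of -4.92, -4.37, -5.19 and -4.78 with TRAIL. The C3/C2 arrays read -0.71, -0.80, -1.08 and -0.95 and the SN arrays -0.75, -0.81, -1.33 and -1.48. With TRAIL+C3/C2 the levels were -0.63, -0.65, -1.21 and -1.29, and with TRAIL+SN -0.82, -0.92, -1.55 and -1.53. All 16 arrays with the acids or the supernatant stood above all 8 without them. The log2 difference from NT was 4.08 ± 0.24 with C3/C2 (16.9-fold, adjusted p = 3.8e-12), 3.87 ± 0.24 with SN (14.6-fold) and 0.15 ± 0.24 with TRAIL (adjusted p = 0.69). With normexp background correction, which raises the floor of dim probes, the differences were 2.61 with C3/C2 and 2.44 with SN. The probe lies at chr11:66818219-66818278 (hg19, plus strand).

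SYT11, another member that does not bind calcium, never rose well above background in NT or TRAIL arrays. Its NT levels were -7.55, -7.81, -7.54 and -7.56, and those with TRAIL -7.20, -7.29, -7.14 and -7.55. On the C3/C2 arrays it reached -3.28, -3.42, -2.89 and -3.07, and on the SN arrays -4.74, -4.69, -4.84 and -4.37, well above background on all 8. With TRAIL+C3/C2 it read -4.66, -4.36, -3.72 and -3.11, of which 3 were well above background, and with TRAIL+SN -6.27, -4.76, -4.60 and -4.62, of which 2 were. The groups with C3/C2 or SN did not overlap with NT. Since the NT level is only a bound, SYT11 was at least 5.82-fold higher with C3/C2, at least 3.34-fold higher in TRAIL+C3/C2 cells, at least 2.07-fold higher with SN and at least 1.56-fold higher in TRAIL+SN cells, against the higher of the array's lowest signal well above background and the probe's own signal. SYT11 passed the filter only through the groups in which it was high, so no p is given against NT. With normexp correction the SN difference was 0.74 on the log2 scale and no longer reached a 2-fold change.

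SYT7, a high-affinity calcium sensor for the fusion of lysosomes and secretory granules, read -1.03, -0.88, -0.89 and -0.75 in NT and -1.12, -1.09, -0.92 and -0.85 with TRAIL. It was 0.55, 0.52, 0.63 and 0.66 with C3/C2 and 0.90, 0.97, 0.67 and 0.74 with SN. The co-treatments gave 0.54, 0.54, 0.19 and 0.16 with C3/C2 and 0.96, 0.98, 0.59 and 0.31 with SN. No array with either acid source came down to the untreated levels. The difference from NT was 1.48 ± 0.13 with C3/C2 (adjusted p = 1.5e-09), 1.71 ± 0.13 with SN and -0.11 ± 0.13 with TRAIL.

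SYT15, another synaptotagmin, rose in all 4 treatments with C3/C2 or SN. Its levels were -2.29, -2.46, -2.86 and -2.86 in NT, -1.49, -1.08, -1.62 and -1.46 with C3/C2 and -1.20, -1.46, -1.57 and -1.19 with SN. The TRAIL arrays read -2.06, -2.18, -2.70 and -2.17, the TRAIL+C3/C2 arrays -1.35, -1.41, -1.30 and -1.31 and the TRAIL+SN arrays -1.30, -0.94, -1.32 and -1.31. TRAIL arrays overlapped with NT, while the other treatments did not. SYT15 rose by 1.20 ± 0.15 with C3/C2 (adjusted p = 4.4e-07) and by 1.26 ± 0.15 with SN, and with arrays scaled to their median the C3/C2 difference was 0.90, under a 2-fold change. SYT13, which also lacks calcium binding, was called higher with C3/C2 (1.11 ± 0.25), SN (1.05 ± 0.25) and TRAIL+C3/C2 (1.19 ± 0.25). These SYT13 calls stood close to a 2-fold change. The C3/C2 difference was 0.98 without NT replicate 3, 0.96 without NT replicate 4 and 0.995 without C3/C2 replicate 1. The SN difference was 0.92 without NT replicate 3, 0.91 without NT replicate 4, 0.95 without SN replicate 1 and 0.94 without SN replicate 2. With arrays scaled to their median the SYT13 differences were 0.81 with C3/C2, 0.92 with SN and 0.85 with TRAIL+C3/C2, and the last was 0.48 (adjusted p = 0.14) with spike-in scaling. SYT8 was called lower with C3/C2 only (-1.001 ± 0.16), at the fold threshold itself, and stood at -0.82 with SN and -0.88 with TRAIL+C3/C2. With C3/C2 it was -0.98 without NT replicate 1, -0.95 without NT replicate 2, -0.88 without C3/C2 replicate 3 and -0.89 without C3/C2 replicate 4. In every group SYT13 and SYT8 read higher on replicates 1 and 2 than on replicates 3 and 4. Leaving out 1 array therefore also changed this balance, and with a replicate block the calls of both genes were kept. Scaled to the array median SYT8 was also called with TRAIL+C3/C2 (-1.22), and scaled to spike-in probes with TRAIL+C3/C2 (-1.59) and TRAIL+SN (-1.18). SYT17 had differences of 0.97 with C3/C2 and 0.95 with SN and was not called, and by their brightest probes SYT2 and SYT3 stayed between 0.02 and 0.13 with C3/C2. The 3 probes of SYT2 that passed ran from 0.13, the brightest, to 0.72 with C3/C2, and none was called.

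Synaptotagmin-like proteins bind Rab27 on secretory vesicles through their front end and the target membrane through their tail. Of 4 tested, SYTL2 and SYTL3 rose in every treatment with C3/C2 or SN. SYTL3 had levels of -4.18, -3.97, -4.83 and -4.85 in NT, -1.89, -1.89, -2.29 and -2.22 with C3/C2 and -1.80, -1.81, -2.17 and -2.33 with SN. With TRAIL it read -4.13, -4.02, -4.23 and -4.51, with TRAIL+C3/C2 -2.12, -2.02, -2.54 and -2.57 and with TRAIL+SN -2.13, -2.30, -3.01 and -2.54. TRAIL arrays lay among the NT arrays, and no array with C3/C2 or SN did. The difference from NT was 2.38 ± 0.21 with C3/C2 (5.21-fold, adjusted p = 2.7e-09) and 2.43 ± 0.21 with SN, and with normexp correction 1.37 and 1.45.

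SYTL2, which is known from epithelial cells, gave 0.66, 0.90, 1.22 and 1.16 in NT and 0.36, 0.35, 0.69 and 0.90 with TRAIL. With C3/C2 it gave 2.85, 3.07, 2.92 and 2.97 and with SN 2.51, 2.69, 2.76 and 2.75. The TRAIL+C3/C2 arrays read 2.67, 2.79, 2.72 and 2.71 and the TRAIL+SN arrays 2.64, 2.77, 2.53 and 2.57. Here the arrays with the acids or the supernatant were high and close together. The differences were 1.97 ± 0.12 with C3/C2 (3.92-fold, adjusted p = 4.3e-12), 1.70 ± 0.12 with SN and -0.41 ± 0.12 with TRAIL (adjusted p = 0.01, under a 2-fold change). SYTL1 was called only with TRAIL+SN (1.08 ± 0.11), with 0.97 for SN and 0.08 for C3/C2. This SYTL1 difference was 0.89 scaled to the array median, 0.56 scaled to spike-in probes and 0.99 with quantile normalization, each under a 2-fold change. SYTL4, or granuphilin, was not called by its brightest probe.

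Among the syntaxins of the plasma membrane, 6 of 7 were tested and 2 stood out in opposite directions. STX19 lacks the membrane anchor of other syntaxins and is known from epithelia. It read -0.11, -0.16, 0.13 and -0.03 in NT and -0.12, -0.39, 0.15 and 0.11 with TRAIL. With C3/C2 it fell to -3.74, -3.89, -3.71 and -3.69 and with SN to -3.43, -4.04, -3.20 and -3.30. The co-treatments gave -3.77, -3.46, -3.14 and -3.09 with C3/C2 and -3.32, -3.74, -2.68 and -2.79 with SN. All 16 arrays with the acids or the supernatant were below all 8 arrays without them, and every array was still well above background. The log2 difference was -3.71 ± 0.21 with C3/C2, -3.45 ± 0.21 with SN (adjusted p = 4.6e-12), -3.32 ± 0.21 in TRAIL+C3/C2 cells and -3.09 ± 0.21 in TRAIL+SN cells, and -0.02 ± 0.21 with TRAIL (adjusted p = 0.95). With normexp correction the differences were -2.83 with C3/C2 and -2.62 with SN. The STX19 probe is placed at chr3:93733217-93733276 (hg19, minus strand).

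STX1A, the syntaxin of neuronal and endocrine exocytosis, moved the other way. NT arrays read 3.10, 3.27, 3.07 and 3.25, C3/C2 arrays 4.36, 4.59, 4.45 and 4.54 and SN arrays 4.48, 4.41, 4.45 and 4.51. The values were 3.33, 3.50, 3.44 and 3.66 with TRAIL, 4.77, 4.80, 4.62 and 4.56 with TRAIL+C3/C2 and 4.88, 4.95, 4.94 and 4.86 with TRAIL+SN. TRAIL arrays stood slightly above NT, and the other treatments stood higher still. The difference was 1.32 ± 0.07 with C3/C2, 1.29 ± 0.07 with SN, 0.31 ± 0.07 with TRAIL (adjusted p = 0.0021) and 1.73 ± 0.07 with TRAIL+SN (3.33-fold, adjusted p = 8.9e-15). STX4, a syntaxin of the basolateral membrane, was called with TRAIL+C3/C2 only (1.06 ± 0.05), with 0.66 for TRAIL and 0.92 for TRAIL+SN. This call was lost with arrays scaled to their median (0.72) or to spike-in probes (0.35). STX3, its apical counterpart, reached 0.53 with C3/C2 and 0.56 with SN and was not called. STX11, a syntaxin of cytotoxic granules, was well above background on 14 of the 24 arrays and on 2 of the 4 NT arrays. It passed the filter only through C3/C2 and TRAIL+SN, groups in which it was high, so no weight is put on its call with C3/C2 (1.07 ± 0.21). The C3/C2 difference was 0.02 on slide 1 and 1.42 on slide 2, and it was 0.96 without NT replicate 3 and 0.87 without C3/C2 replicate 3.

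Of 9 syntaxins of internal membranes 0 were called with C3/C2 and 1 with SN, counts too small to set against the 19.6% and 24% of all genes. Their median difference was 0.47 with C3/C2 and 0.61 with SN, beside 0.65 and 0.51 for the 6 at the plasma membrane, and 7 of the 9 had an adjusted p under 0.05 in each. STX5, the Golgi syntaxin, was called higher with SN (1.14 ± 0.08) and had 0.79 with C3/C2, and STX7, of late endosomes, was called with TRAIL+C3/C2 (1.10 ± 0.07). The STX7 call, its only one, was lost with arrays scaled to their median (0.76) or to spike-in probes (0.39). STX17, the syntaxin of autophagosomes, had negative differences in the treatments with C3/C2 or SN, -0.68 with C3/C2 and -0.63 with SN, and 0.35 with TRAIL, none of them 2-fold. With spike-in scaling STX17 was called lower with TRAIL+C3/C2 (-1.22) and TRAIL+SN (-1.11). For SN against TRAIL, at -0.97, it was called with arrays scaled to their median (-1.20) and with quantile normalization (-1.04). STX6, STX8, STX10, STX12, STX16 and STX18 lay between -0.36 and 0.57 with C3/C2 and between -0.21 and 0.84 with SN.

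With each gene read by its brightest probe, VAMP1, a vesicle SNARE of neurons also called synaptobrevin, was the 1 of 7 VAMP genes that was called. Its levels were -5.02, -5.02, -4.94 and -5.07 in NT and -4.87, -4.85, -4.40 and -4.57 with TRAIL. They were -2.44, -2.53, -2.07 and -2.09 with C3/C2 and -2.83, -3.03, -2.72 and -2.88 with SN. With TRAIL+C3/C2 they were -2.11, -2.09, -1.52 and -1.51 and with TRAIL+SN -2.95, -2.87, -2.65 and -2.65. TRAIL arrays stood just above NT, and the arrays with C3/C2 or SN well above both. The difference from NT was 2.73 ± 0.14 with C3/C2, 2.15 ± 0.14 with SN and 3.20 ± 0.14 with TRAIL+C3/C2 (9.22-fold, adjusted p = 3.7e-14), beside 0.34 ± 0.14 with TRAIL (adjusted p = 0.075). With normexp correction VAMP1 differed from NT by 1.05 with SN and 1.89 with TRAIL+C3/C2. By their brightest probes, VAMP2, VAMP3, VAMP4, VAMP5, VAMP7 and VAMP8 lay between -0.33 and 0.09 with C3/C2 and between -0.75 and 0.04 with SN. The -0.75 was VAMP2, whose probes disagreed and reached up to 0.88 with SN.

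SNAP25, the partner of STX1A and VAMP proteins in neurons, was the 1 gene of its family that was called, and it was lower. Levels were -3.12, -2.85, -3.11 and -2.79 in NT, -3.81, -3.75, -3.73 and -3.59 with C3/C2 and -4.15, -4.36, -4.73 and -4.67 with SN. They were -3.42, -4.17, -4.18 and -3.98 with TRAIL, -4.48, -4.29, -4.46 and -4.12 with TRAIL+C3/C2 and -4.04, -4.54, -4.55 and -4.76 with TRAIL+SN. Every treated array, those with TRAIL alone included, was below every NT array. The difference was -1.51 ± 0.17 with SN (adjusted p = 6.2e-08), -1.37 ± 0.17 in TRAIL+C3/C2 cells and -1.50 ± 0.17 in TRAIL+SN cells, while -0.75 ± 0.17 with C3/C2 and -0.97 ± 0.17 with TRAIL (adjusted p = 0.00015) were under a 2-fold change. Without NT replicate 1, NT replicate 3 or TRAIL replicate 1 the TRAIL difference was -1.02, -1.01 and -1.14 and was called. It was also called with spike-in scaling, at -1.24. The C3/C2 difference was called with arrays scaled to their median (-1.05) and with quantile normalization (-1.07). With normexp correction the differences of this dim probe were -0.69 with SN, -0.28 in TRAIL+C3/C2 cells and -0.32 in TRAIL+SN cells, all under a 2-fold change. SNAP23, which serves the same place in cells other than neurons, had 0.62 with C3/C2 and 0.34 with SN, and SNAP29 and SNAP47 lay between 0.51 and 0.75 with C3/C2.

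Among the syntaxin-binding proteins, STXBP3 fell and STXBP4 rose in every treatment with C3/C2 or SN. STXBP3, which binds STX4, read 1.98, 1.98, 1.98 and 1.62 in NT and 2.00, 1.96, 1.91 and 1.79 with TRAIL. It read 0.71, 0.76, 0.47 and 0.48 with C3/C2 and 0.25, 0.29, 0.10 and 0.18 with SN. Values of 0.76, 0.85, 0.65 and 0.64 with TRAIL+C3/C2 and 0.45, 0.57, 0.58 and 0.19 with TRAIL+SN were also low. It fell with no overlap in all treatments but TRAIL: -1.29 ± 0.10 with C3/C2, -1.69 ± 0.10 with SN (3.22-fold lower, adjusted p = 2e-12) and -1.45 ± 0.10 with TRAIL+SN. STXBP4, another partner of STX4, rose. It had -1.70, -1.47, -1.39 and -1.39 in NT, -0.05, 0.02, 0.22 and 0.07 with C3/C2 and -0.52, -0.48, -0.13 and -0.22 with SN, and -1.79, -1.60, -1.39 and -1.17 with TRAIL. With TRAIL+C3/C2 it had 0.16, 0.15, 0.47 and 0.40 and with TRAIL+SN -0.02, 0.13, 0.25 and 0.18. The difference was 1.55 ± 0.12 with C3/C2 and 1.78 ± 0.12 with TRAIL+C3/C2 (3.44-fold, adjusted p = 3.2e-11). STXBP2, which serves secretion in epithelia and blood cells, STXBP5, STXBP5L and STXBP6 were not called and lay between -0.27 and 0.82 with C3/C2.

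**Figure D2:**
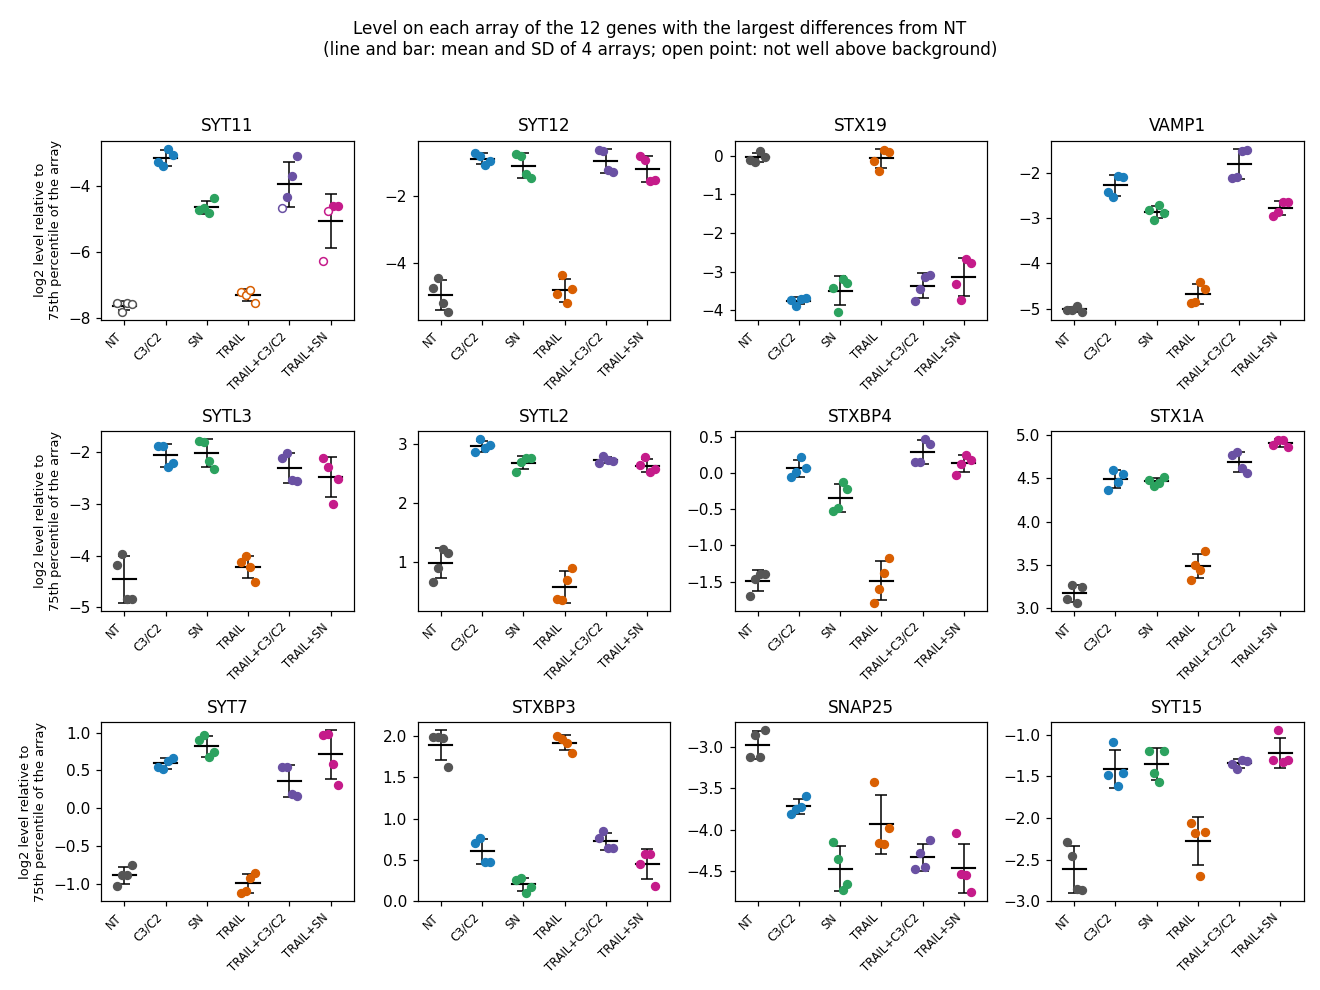
Log2 level above or below the array's 75th percentile, on the vertical axis, on each of the 24 arrays for the 12 genes with the largest differences from NT, with groups on the horizontal axis. Lines and bars give the mean and SD of 4 arrays, and open points mark arrays not well above background. NT and TRAIL arrays lie together for most genes, SYT12 between -5.46 and -4.37 across both, and the other 4 groups lie apart from them.

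Promoter sequence was read for 48 of the 60 genes from RefSeq (GRCh38.p14), as the 250 bases before each listed start. The 4 windows below are shown because SYT11 and VAMP1 had the largest rises, and STX19 and STXBP3 the largest falls, among genes with a single listed start, a choice made after their values were seen. Capitals mark the GC box GGGCGG, the box named by its letters CCAAT and the cAMP response element TGACGTCA on either strand, and overlapping matches run together.
SYT11, chr1:155859317-155859566, plus strand: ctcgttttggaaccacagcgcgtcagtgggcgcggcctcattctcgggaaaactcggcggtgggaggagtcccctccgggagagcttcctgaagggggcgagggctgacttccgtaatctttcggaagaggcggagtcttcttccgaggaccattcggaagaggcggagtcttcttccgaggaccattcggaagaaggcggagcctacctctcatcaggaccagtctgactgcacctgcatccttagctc
VAMP1, chr12:6470678-6470927, minus strand: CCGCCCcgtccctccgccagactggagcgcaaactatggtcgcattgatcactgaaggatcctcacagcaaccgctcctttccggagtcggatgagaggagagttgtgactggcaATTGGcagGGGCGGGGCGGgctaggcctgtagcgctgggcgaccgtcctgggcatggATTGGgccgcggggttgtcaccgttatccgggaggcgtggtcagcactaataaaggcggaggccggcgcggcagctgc
STX19, chr3:94028598-94028847, minus strand: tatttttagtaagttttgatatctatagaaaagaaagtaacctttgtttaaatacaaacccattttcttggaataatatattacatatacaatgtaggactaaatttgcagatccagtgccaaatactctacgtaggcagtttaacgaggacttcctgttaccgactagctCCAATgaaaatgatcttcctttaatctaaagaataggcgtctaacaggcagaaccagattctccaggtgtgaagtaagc
STXBP3, chr1:108746424-108746673, plus strand: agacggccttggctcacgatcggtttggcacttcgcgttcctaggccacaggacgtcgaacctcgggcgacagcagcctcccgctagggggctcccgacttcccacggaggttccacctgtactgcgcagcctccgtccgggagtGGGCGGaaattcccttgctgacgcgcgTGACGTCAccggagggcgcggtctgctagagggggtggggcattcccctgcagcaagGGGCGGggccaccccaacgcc
The SYT11 window has none of the 3 motifs, VAMP1 has 3 GC boxes and 2 CCAAT boxes, STX19 has 1 CCAAT box and a GC content of 34.4%, and STXBP3 has 2 GC boxes and 1 cAMP response element. The median GC content over 35116 promoter windows was 58.0%. The share of all windows that held a motif was 42.6% for the GC box, 32.0% for the CCAAT box and 1.65% for the cAMP response element. Among windows of the genes called higher 9 of 15 held a GC box, among those of genes tested and not called 27 of 38, and among those of genes called lower 1 of 2. Of 5 other motifs searched on both strands, the E-box CACGTG, the AP-1 site TGANTCA, the TATA box TATAAA and the repressor element parts TTCAGCACC (left) and GGACAG (right), each was in at most 1 of the 15 windows of genes called higher, where 6.35%, 6.57%, 10.7%, 0.288% and 17.2% of all windows held them in this order. A gene with several starts counts once for each, and these matches describe letters and not binding.

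The share of these genes that differed between SN and C3/C2 lay near or below that of all genes. In the direct comparison of SN with C3/C2 1 of the 46 was called, SYT11, which was lower with SN, where 5.7% of all genes were called, 4.42% lower. Its difference was -1.49 ± 0.31 (adjusted p = 0.00048), it was well above background on all 8 arrays, and with normexp correction it was -0.54. In all 17 genes had an adjusted p under 0.05, beside 47.4% of all genes, and 16 of them had a fold under 2. VAMP1 (-0.58, 95% interval -0.88 to -0.28), SNAP25 (-0.76, -1.10 to -0.41), STXBP4 (-0.40, -0.65 to -0.15) and STXBP3 (-0.40, -0.60 to -0.20) were among the lower ones. SYTL1 (0.89, 0.67 to 1.11) was among the higher ones. For SYT12 the difference was -0.21 with an interval of -0.71 to 0.29, for STX19 0.26 (-0.17 to 0.70), for SYTL3 0.05 (-0.40 to 0.49) and for STX1A -0.03 (-0.18 to 0.12), and none of these passed. SN and C3/C2 lay on different slides.

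TRAIL+SN against TRAIL+C3/C2, which shares a slide, gave 1 call too, with 3.53% of all genes called, 2.56% lower. It was SYT11, lower with TRAIL+SN by -1.10 ± 0.31 (adjusted p = 0.0078). The call depended on single arrays: without TRAIL+SN replicate 1 the difference was -0.70, and without TRAIL+C3/C2 replicate 4 it was -0.82. It was also under a 2-fold change with arrays scaled to their median, to spike-in probes or by quantiles, and its adjusted p was 0.10 when only these 2 groups were fitted. VAMP1 came close to the fold threshold (-0.97 ± 0.14, adjusted p = 2e-05), and all 4 TRAIL+SN arrays were below all 4 TRAIL+C3/C2 arrays. SYTL1 was higher (0.73 ± 0.11). Again 17 genes had an adjusted p under 0.05, beside 37.6% of all genes.

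**Figure D3:**
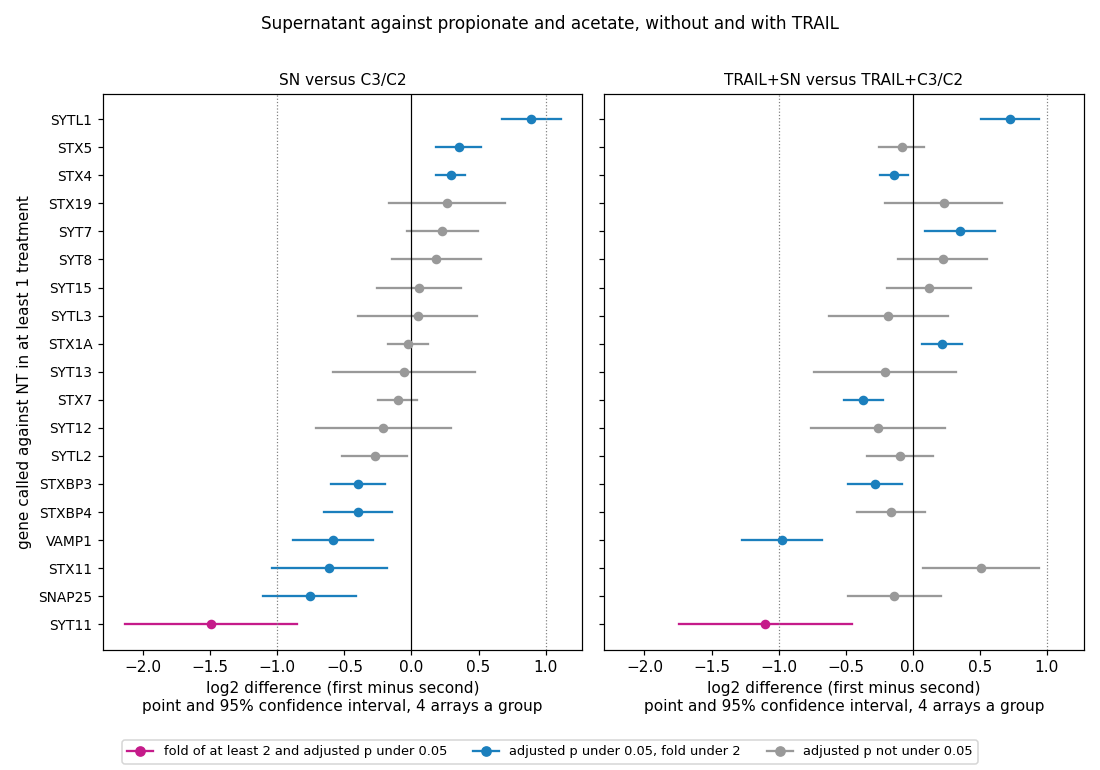
Log2 differences of SN from C3/C2 (left) and of TRAIL+SN from TRAIL+C3/C2 (right) for 19 of the 20 genes called against NT at least once, in rows, each with its 95% confidence interval and dotted lines at a 2-fold change. SYT11 is past 2-fold and called in both panels, at -1.49 and -1.10, and no other point is beyond the dotted lines.

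Within slide 3, SN was compared with TRAIL and gave 9 genes higher and 2 lower, where 21.1% of all genes were called, 13.1% higher and 8% lower, and 36 had an adjusted p under 0.05 at any fold, beside 66.4% of all genes. With spike-in scaling it gave 18 higher and 2 lower, beside 24.1% of all genes. STX19 (-3.43 ± 0.21) and STXBP3 (-1.71 ± 0.10) were lower. SYT12 (3.72 ± 0.24), SYTL3 (2.19 ± 0.21), SYTL2 (2.10 ± 0.12), SYT7 (1.81 ± 0.13), VAMP1 (1.81 ± 0.14), STXBP4 (1.15 ± 0.12) and SYT17 (1.04 ± 0.15) were among the higher ones, and SYT11 was at least 1.65-fold higher. With normexp correction VAMP1 (0.72) and STXBP4 (0.93) were under a 2-fold change here, as was STXBP4 scaled to the array median (0.92). The comparison of C3/C2 with NT within slide 2 alone gave 4.09 for SYT12, -3.74 for STX19, 2.78 for VAMP1 and -1.29 for STXBP3, and the single pair of slide 1 gave 4.05, -3.63, 2.58 and -1.28 in the same order.

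Whether TRAIL altered the response to C3/C2 or SN was read from how far the log2 difference of each co-treatment departed from that of TRAIL plus that of C3/C2 or SN. No gene was called for C3/C2, where 0.657% of all genes were called, and none had an adjusted p under 0.05, beside 2.88% of all genes. Only SYT11 had an unadjusted p under 0.05 with a fold of 2 or more (-1.12 ± 0.44). Its NT and TRAIL levels were not well above background on any array, and it passed the filter only through groups in which it was high. Its value is therefore not read as a departure. For SN none was called, where 3.1% of all genes were called, at either the adjusted or the unadjusted p. At any fold 8 genes had an adjusted p under 0.05 for SN, beside 23.2% of all genes. SNAP25 had the highest departure (0.97 ± 0.24, adjusted p = 0.0052) and differed from NT by -1.51 with SN, -0.97 with TRAIL and -1.50 with both. STX5 (-0.68 ± 0.11) and STX4 (-0.46 ± 0.07) departed the other way. All of these comparisons cross slides.

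16 of the 46 genes had more than 1 probe that passed, and in 7 of them at least 1 probe was called against NT. Both probes of STXBP4 gave like values, 1.55 ± 0.12 and 1.70 ± 0.19 with C3/C2. For SYTL4 the brightest probe stood at 0.17 with C3/C2 and 0.14 with SN, while the others were called higher. These gave 1.48 ± 0.19 and 1.14 ± 0.21 with C3/C2 and 1.20 ± 0.19 and 1.01 ± 0.21 with SN. The probe at 1.48 and 1.20 gave a signal well above background in only 2 NT and 2 TRAIL arrays. Every other group had 4 such arrays, and only through them did this probe pass the filter, so its calls are given no weight. The probe at 1.14 and 1.01 read well above background on all 24 arrays. VAMP2, the main vesicle SNARE of synapses, had -0.03 by its brightest probe with TRAIL+C3/C2 and 1.15 ± 0.10 and 0.21 ± 0.08 by the others, of which 1 was called. Its probes ran from -0.75, the brightest, to 0.88 with SN. With TRAIL+SN they ran from -0.34, again the brightest, to 1.02, of which 1 was called higher. The call of STX7 with TRAIL+C3/C2 was not shared by its other probe, at -0.38 ± 0.09, nor that of SYTL1 with TRAIL+SN by its others, at 0.26 ± 0.14 and 0.06 ± 0.16. For STX1A the other probe was called with SN (1.15 ± 0.07) and stood at 0.72 ± 0.07 with C3/C2, and for SYT8 the other probe stood at -0.42 ± 0.17 with C3/C2. Whether these probes report different transcripts was not tested.

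**Figure D4:**
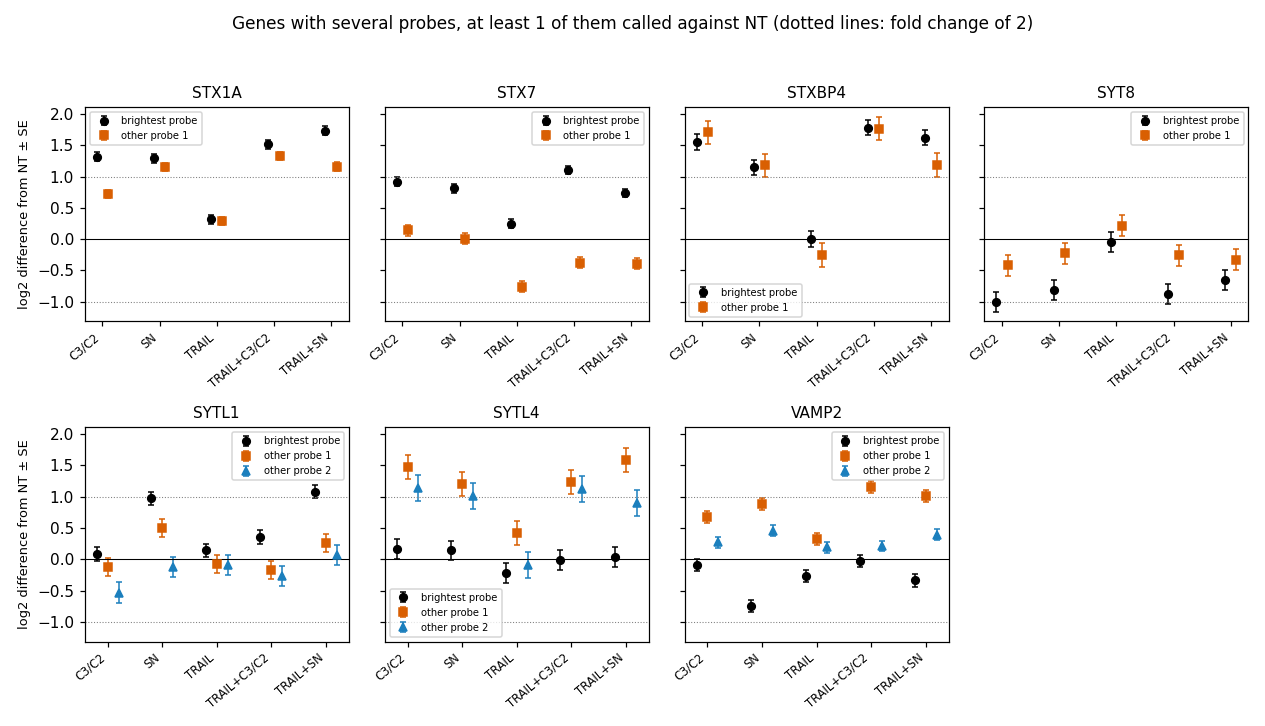
Log2 difference from NT with its standard error, on the vertical axis, for each probe of the 7 genes that have several probes with at least 1 of them called, and the 5 treatments on the horizontal axis. Black circles are the brightest probe, which stands for the gene in the text, and dotted lines mark a 2-fold change. The probes of STXBP4 lie together, and those of SYTL4, VAMP2 and STX7 lie apart.

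A wider list of 75 genes of vesicle fusion outside the name rule had 63 members tested. With C3/C2, 11 were called higher and 2 lower, in TRAIL+C3/C2 cells 12 and 1, with SN 11 and 0, in TRAIL+SN cells 10 and 0, and with TRAIL 0. These counts stand beside the 19.6%, 24.2%, 24%, 26.2% and 2.93% of all genes given above, and the median difference of the list was 0.11 with C3/C2 and 0.21 with SN. The genes called higher with C3/C2 and with SN fell in 3 groups of the list. Of 10 genes for priming and calcium-dependent release, 5 rose with C3/C2 and with SN, while RPH3AL, a Rab effector of dense-core granules, was lower with C3/C2 (-1.18 ± 0.07). RIMS3, of the active zone, was at least 19.2-fold higher with C3/C2 and at least 22.8-fold higher with SN. BAIAP3 rose by 3.16 ± 0.19 with C3/C2 and 2.91 ± 0.19 with SN, CPLX3, a complexin, was at least 3.22-fold and 3.53-fold higher, and CPLX1 rose by 1.29 ± 0.13 and 1.58 ± 0.13. Of 11 secretory Rab proteins and effectors, RAB3A (2.85 ± 0.09 with C3/C2 and 3.42 ± 0.09 with SN), RAB3B (2.14 ± 0.30 and 2.20 ± 0.30) and RAB3C (at least 1.59-fold and 1.32-fold higher), all Rab3 proteins of regulated secretion, were higher. Of 12 vesicle membrane proteins, SCAMP5 (3.80 ± 0.14 and 4.19 ± 0.14), SYNGR3 (2.69 ± 0.23 and 2.61 ± 0.23) and SYNGR1 (1.76 ± 0.21 and 1.17 ± 0.21) were higher. RIMS3, CPLX3 and RAB3C were well above background on no NT array, and RAB3B on 2 of 4. These genes thus passed the filter only through treated groups, and the counts of the wider list include them.

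None of 4 genes for NSF and its adaptors, which take SNARE bundles apart, none of 9 exocyst genes and none of 5 other Sec1/Munc18 genes was called in any treatment against NT, counts too small to set against the share of all genes. Their median differences with SN were 0.42, 0.12 and 0.16, and all 4 genes for NSF and its adaptors had an adjusted p under 0.05 with SN. Of 12 Golgi and ER SNARE genes outside the name rule 1, GOSR1, was lower with C3/C2 (-1.01 ± 0.06) and TRAIL+C3/C2 (-1.09 ± 0.06). Of 5 neuron markers 4 were well above background on all 24 arrays, and NEFL was so on 1 NT array. The mean log2 level in NT, C3/C2 and SN was -0.55, 2.38 and 2.70 for TUBB3, -4.01, -2.42 and -2.51 for MAP2, -2.13, -1.48 and -1.27 for SLC17A7 and -1.08, -1.05 and -1.69 for RBFOX3. The summed level of the 5 lay between 0.40 and 0.70 in NT, 2.47 and 2.78 in C3/C2 and 2.63 and 3.12 in SN, with TUBB3 its brightest part. Of 5 fibroblast markers COL3A1 and DCN were well above background on none, and PDGFRB on none of NT, C3/C2 or SN. COL1A1 was at -6.54 in NT, on no array well above background, and at -1.42 with C3/C2, and LUM was at -2.85 and -1.86. Their summed level went from between -2.84 and -2.30 in NT to between -0.63 and -0.53 in C3/C2. The summed level of 4 leukocyte markers lay between 0.61 and 1.00 in NT and between 1.62 and 1.93 in C3/C2. Among them CD14 was at 0.75 and 1.56 and PTPRC at -4.10 and -4.04, and CD3E was well above background on 3 and 2 arrays. The part of these markers in the changes of the vesicle genes was not tested.

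**Figure D5:**
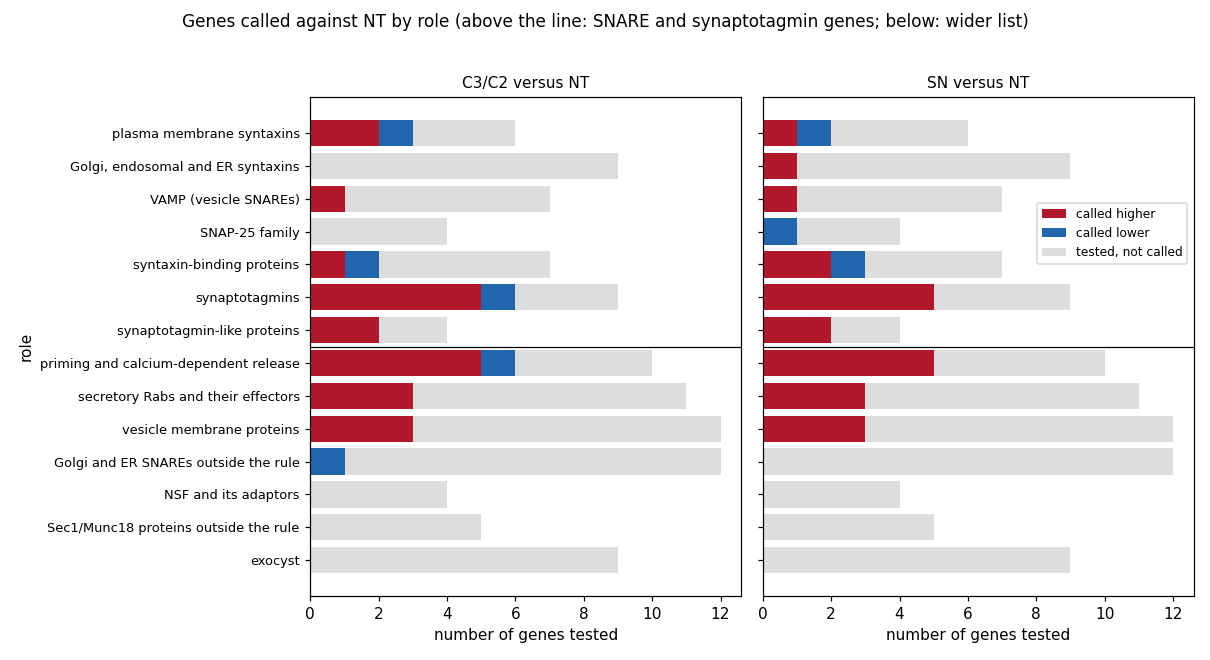
Number of genes tested, on the horizontal axis, by role, with genes called higher than NT in red, called lower in blue and not called in grey, for C3/C2 (left) and SN (right). Above the line are the SNARE and synaptotagmin genes and below it the wider list. With SN, 5 of 9 synaptotagmins and 5 of 10 priming genes are red, where 14.2% of all genes were called higher. The exocyst, NSF and other Sec1/Munc18 rows are grey throughout. Each role holds few genes, and SYT11, RIMS3, CPLX3, RAB3B and RAB3C among the red ones passed the filter only through treated groups. The same holds for STX11, which is red with C3/C2.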

How the data were processed

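HT29 RNA from 24 samples was labelled with Cy3 and hybridised to one-colour Agilent arrays. The authors deposited the spot intensity from Agilent Feature Extraction (version 10.7.3.1, per the file headers), which removes spatial trends, subtracts background and sets signals not above it to a surrogate value, and does not normalize between arrays. A deposited table of intensity divided by the median of the array gave the same values and was not used further. The deposited flags marked spots as well above background or as outliers. For their own calls the authors used Rosetta Resolver, not repeated here.

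Here control and outlier spots were left out (190 to 315 outlier spots an array), log2 intensities of repeated spots were averaged by probe, and each array's 75th percentile was subtracted. A gene was represented by its brightest probe that passed, as the highest mean log2 level over the arrays. Group means were fitted over all 24 arrays with limma 3.58.1 in R 4.3.3 (statmod 1.5.0), with 18 residual degrees of freedom, and a gene was called at a fold of 2 and an adjusted p under 0.05. The number of arrays limits the precision, with a median standard error of 0.10 for these genes. "At least" folds stand where a group had 0 arrays well above background: its level was set, by array, to the lowest signal that was, or to the probe's own if higher. The script was tested on simulated data. Same-numbered replicates deviated together in most pairs of groups (every correlation over 0.1 in 12 of 15), so a replicate block was tried. Alternatives were 4 other scalings or backgrounds, no filter, no minimum fold, the mean of a gene's probes, slide and replicate blocks, fits of the groups compared alone, and leaving out each array or slide 1, the last chosen after seeing the data.

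Values on each array were given for the 12 genes called with the largest difference from NT and no overlap with it. Of the wider list the 10 called with the largest difference were named by rule. UNC13D, SYP and DOC2A were also called at least once, and GOSR1 and RPH3AL were named after their values were seen. The values of 1 of the 46 genes and of 1 marker are not reported here, and counts include them. Members and lists were chosen with earlier results of these data known. Plots used matplotlib 3.10.9 (Python 3.11.15).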

Additional observations from a re-analysis of the deposited data

Results flagged for a closer look

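In 4 of 72 sets of 4 arrays, over the 12 genes shown by array and the 6 groups, 1 array stood apart from the other 3, and chance alone gives about 1 in 20. STXBP3 read 1.62 on NT replicate 4 and 1.98 on the other NT arrays. SYT11 read -7.81 on NT replicate 2, where none of the NT arrays was well above background, and -6.27 on TRAIL+SN replicate 1, against -4.76 to -4.60 on the others. SYT15 read -0.94 on TRAIL+SN replicate 2, against -1.32 to -1.30 on the others. All are log2 levels above or below the array's 75th percentile.

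For 8 genes the effect of SN differed with and without TRAIL at an adjusted p under 0.05 in the interaction test (limma). The departure from the sum of both treatments was 0.97 for SNAP25, 0.67 for VAMP2, 0.49 for STX2, -0.25 for VAMP8, -0.27 for VAMP3, -0.32 for STX7, -0.46 for STX4 and -0.68 for STX5 on the log2 scale. None reached a 2-fold departure, and TRAIL, SN and TRAIL+SN were compared across slides. For VAMP2 and STX7 the probes of the gene differed in their response.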

How the results depend on the processing

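Of 1347 gene differences recomputed under the alternatives, 1283 kept their direction and stayed called, 64 kept their direction and were no longer called, and 0 reversed. The 1283 include 70 values with no minimum fold change, which reuse the main fit with a looser rule and had to stay called. The replicate block changed no count by over 1.5 times and no call: with it the counts were 14 for C3/C2, 15 for TRAIL+C3/C2, 15 for SN, 14 for TRAIL+SN and 0 for TRAIL against NT. Slide as a random block changed no call either, but in comparisons across slides it cannot separate slide from treatment. Slide as a fixed block and slide 2 alone were fitted only for C3/C2 against NT, and changed no call there. With no minimum fold change the counts were 35 for C3/C2, 34 for TRAIL+C3/C2, 32 for SN, 31 for TRAIL+SN and 13 for TRAIL against NT, 17 for SN against C3/C2, 17 for TRAIL+SN against TRAIL+C3/C2, 36 for SN against TRAIL and 8 for the interaction of TRAIL and SN. SN against C3/C2 gave 2 calls with arrays scaled to their median or to spike-in probes and 0 with normexp. TRAIL+SN against TRAIL+C3/C2 gave 0 with either scaling, with quantile normalization, with normexp and with only the groups compared. Spike-in scaling gave 20 calls for SN against TRAIL (24.1% of all genes), 1 for TRAIL and 1 for the interaction of TRAIL and SN, and median scaling gave 1 for that of TRAIL and C3/C2. Without slide 1 there was 1 call for TRAIL, 1 for the interaction with C3/C2 and 1 for that with SN. Leaving out 1 array gave 12 to 15 calls for C3/C2, 15 to 16 for TRAIL+C3/C2, 14 to 17 for SN, 14 to 16 for TRAIL+SN, 0 to 1 for TRAIL, 1 to 1 for SN against C3/C2, 0 to 2 for TRAIL+SN against TRAIL+C3/C2, 10 to 12 for SN against TRAIL, and 0 to 1 for each interaction. The TRAIL call was SNAP25, made without NT replicate 1, NT replicate 3 or TRAIL replicate 1. Spike-in scaling moved the median of all genes in TRAIL+C3/C2 from 0.10 to -0.61 and in TRAIL+SN from 0.04 to -0.49, and median scaling moved it in C3/C2 from 0.08 to -0.22. Under spike-in scaling STX1A, SYT7, SYT15, STX4, STX7 and SYT13 were no longer called with TRAIL+C3/C2, at 0.80, 0.53, 0.56, 0.35, 0.39 and 0.48, and for STX4 and STX7 this was the only call. The cause of these changes was not tested. Signals near background limit dim probes, whose differences shrank with normexp: calls of SYT11, STX11 and SNAP25 and that of VAMP1 for SN against TRAIL were lost, and SYT12, SYTL3, VAMP1 and STX19 kept their calls against NT at smaller differences.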
